A study of Mus musculus with 6 samples.

Results

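A set of 10 genes that mark B cells and antibody-secreting plasma cells was followed in RNA sequencing of mouse LSK cells. These are marrow cells sorted for lack of lineage antigens and for Sca-1 and c-Kit, a gate meant to hold blood stem cells and their first descendants. The genes were Jchain, Mzb1, Cd79a, Xbp1, Irf4, Prdm1, Tnfrsf17, Derl3, Bach2 and Pax5, taken by symbol, and all 10 were found among the 48395 rows of the count tables. The donor marrow came from mice primed with 5-fluorouracil that carried Mx1Cre, a recombinase under an interferon-inducible promoter, and 1 activated allele of Jak2 (Jak2V617F/+, or Jak2VF/+), which every library shared, vector libraries included. It was transduced with lentivirus carrying Hmga2 (Jak2VF/+ Hmga2) or with the vector alone (Jak2VF/+ vector) and transplanted into lethally irradiated C57BL/6 recipients, whose marrow was collected 32 weeks later and sorted. Each label had 3 libraries, which the labels call biological replicates without saying whether animals were pooled, and the labels name neither the promoter that drives Hmga2 nor the share of transduced cells. The libraries were also parted by Igha, the constant region of the IgA heavy chain, at 1000 CPM (counts per gene scaled to a common library total). The genes were chosen by their known roles and by earlier measured levels in these same libraries, in which they differed between libraries with high and low Igha.

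Plasma cells arise from B cells through a switch of transcription factors. Pax5 and Bach2 hold the B cell programme, and Bach2 represses Prdm1. Irf4 and Prdm1 drive the change to antibody secretion, and Xbp1 enlarges the endoplasmic reticulum (ER). Long-lived plasma cells reside in the marrow, and the LSK gate is not meant to hold them. Whether any entered the sorted samples was not tested.

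The libraries held between 24818011 and 35471806 counts, so that 3 counts, the limit that a count of 0 allows, came to between 0.0846 and 0.121 CPM; this limit covers counting error only. Hmga2 itself measured 2.63, 6.70 and 6.01 CPM in Hmga2 replicates 1, 2 and 3, against 6.07, 4.98 and 6.78 CPM in vector replicates 1, 2 and 3. The gene that names the label was not higher under it in these counts; no source used here says whether transcripts of the lentivirus were counted. Every direction below is that of the libraries labelled Hmga2. Kit, the c-Kit antigen, ranged from 351 to 376 CPM in the libraries labelled Hmga2 and from 239 to 360.1 CPM in the vector libraries. Igha stood at 2563 CPM in Hmga2 replicate 2, 9081 CPM in vector replicate 1 and 5263 CPM in vector replicate 3, the 3 libraries above the threshold. It stood at 235 and 217 CPM in Hmga2 replicates 1 and 3 and at 191 CPM in vector replicate 2. The library nearest above the threshold was Hmga2 replicate 2 and the nearest below was Hmga2 replicate 1. All immunoglobulin genes took 0.642%, 1.85% and 1.52% of counts in the libraries above the threshold, in the order just given, and between 0.0631% and 0.0886% in the other 3. The libraries above it lay on both sides of the label, 1 among the libraries labelled Hmga2 and 2 among the vector libraries.

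Of the members, 7 followed Igha and not the label. Jchain, Mzb1, Cd79a, Tnfrsf17, Derl3, Irf4 and Prdm1 were each higher in all 3 libraries with Igha above 1000 CPM than in any of the other 3. Xbp1 and Bach2 were parted by the label instead, as were 11.7% of all genes tested in either direction, and Pax5 was close to absent. Of the 9 members that passed the count filter, 7 were thus parted by Igha, while 4.64% of the 16739 genes that passed it had all 3 Igha-high libraries above the rest. The split was made on a plasma cell product in the same libraries and the members were chosen with it known, so these counts describe the libraries and carry no test. In bulk RNA, more cells of a type and more RNA per cell cannot be told apart.

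**Figure D1:**
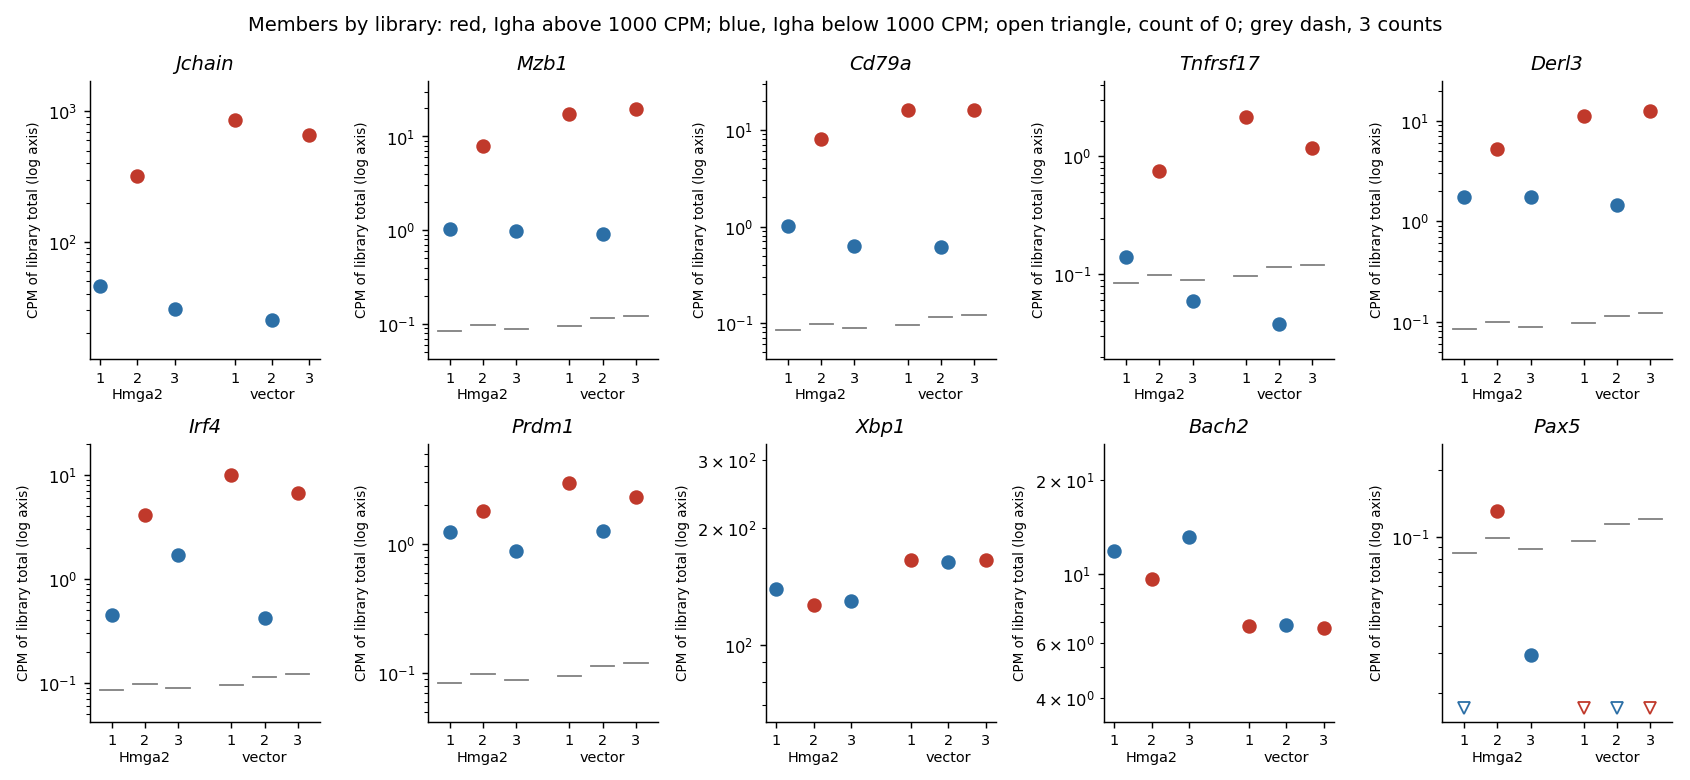
Level of each member in CPM of the library total (log axes, scales differ between panels) in the 3 libraries labelled Hmga2 and the 3 vector libraries; each point is 1 library, red where Igha was above 1000 CPM and blue where it was below, open triangles mark a count of 0 and grey dashes the level of 3 counts. Red points lie above all blue points for 7 members, Xbp1 and Bach2 are parted by the label, and Pax5 reaches 4 counts at most.

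Jchain encodes the joining chain that links IgA into dimers and IgM into pentamers for secretion (chromosome 5, positions 88519809 to 88527891 on mm10, protein coding). It stood at 45.6, 321 and 30.7 CPM in Hmga2 replicates 1, 2 and 3 and at 855, 25.3 and 660.4 CPM in vector replicates 1, 2 and 3. The lowest Igha-high library exceeded the highest of the others 7.02-fold. Even the lowest library held 662 Jchain counts, so the transcript was well above the counting limit everywhere. The groups by label overlapped: Hmga2 replicate 2 lay between the vector libraries, and vector replicate 2 lay below all libraries labelled Hmga2.

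Cd79a, the signalling chain that pairs with Cd79b in the B cell antigen receptor (chromosome 7, positions 24897381 to 24902197), moved in the same way. Its levels were 1.01, 7.99 and 0.621 CPM in Hmga2 replicates 1, 2 and 3, against 16.1, 0.611 and 16.0 CPM in vector replicates 1, 2 and 3. Its partner did not share this pattern: Cd79b stood at 23.8, 32.6 and 27.0 CPM in Hmga2 replicates 1, 2 and 3, against 23.7, 27.0 and 28.7 CPM in vector replicates 1, 2 and 3. The levels of Cd79b in the 2 sets of libraries overlapped, and Cd79b had many counts in libraries where Cd79a had few.

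Tnfrsf17 encodes BCMA, the receptor through which the cytokine APRIL keeps plasma cells alive (chromosome 16, positions 11313812 to 11320074). It was counted 5, 23 and 2 times in Hmga2 replicates 1, 2 and 3 and 68, 1 and 29 times in vector replicates 1, 2 and 3. Of the 3 libraries below the Igha threshold, 2 lay under the level of 3 counts, and the gene passed the count filter through the libraries where it was high.

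Mzb1 and Derl3 both serve the ER of secreting cells. Mzb1, a partner of ER chaperones that aids antibody assembly, stood at 1.04, 7.83 and 0.977 CPM in Hmga2 replicates 1, 2 and 3, against 17.3, 0.916 and 19.5 CPM in vector replicates 1, 2 and 3. Derl3, which helps move misfolded proteins out of the ER for degradation (chromosome 10, positions 75893413 to 75895941), stood at 1.75, 5.29 and 1.75 CPM in Hmga2 replicates 1, 2 and 3, against 11.2, 1.45 and 12.5 CPM in vector replicates 1, 2 and 3. The gap between the 2 sets of libraries was 7.502-fold for Mzb1 and 3.03-fold for Derl3. An annotated neighbour of Mzb1, Spata24, overlaps it, and no source used here gives the strand setting of the counting; Spata24 itself varied from 12.4 to 15.3 CPM over the 6 libraries.

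The promoters of 4 members that followed Igha are shown, and whether these genes share control through them was not tested. Each window runs from 250 bases before to 50 bases after the RefSeq start, 5′ to 3′ on the strand of the gene, with coordinates on GRCm38.p6, the build that mm10 names. Capitals mark matches, on either strand, to any of 8 motifs: the ER stress response element (CCAAT and CCACG with any 9 bases between), its CCACG part alone, the octamer ATGCAAAT, the E box CAGGTG bound by E proteins, the EBF palindrome (TCCC and GGGA with any 2 bases between), the ETS-IRF composite (GGAA and GAAA with any 2 bases between), the interferon-stimulated element (GAAA and GAAA with any 2 bases between) and the Bach and AP-1 element TGANTCA. The CCACG part lies within the full ER stress element, and the 2 motifs that end in GAAA share that block.
Jchain, chr5:88527848-88528147, minus strand: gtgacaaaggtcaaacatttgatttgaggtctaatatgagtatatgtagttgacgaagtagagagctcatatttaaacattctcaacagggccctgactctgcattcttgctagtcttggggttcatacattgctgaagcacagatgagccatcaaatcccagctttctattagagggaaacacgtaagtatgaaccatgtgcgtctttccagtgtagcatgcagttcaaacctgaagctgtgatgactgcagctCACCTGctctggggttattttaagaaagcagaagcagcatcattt
Cd79a, chr7:24897247-24897546, plus strand: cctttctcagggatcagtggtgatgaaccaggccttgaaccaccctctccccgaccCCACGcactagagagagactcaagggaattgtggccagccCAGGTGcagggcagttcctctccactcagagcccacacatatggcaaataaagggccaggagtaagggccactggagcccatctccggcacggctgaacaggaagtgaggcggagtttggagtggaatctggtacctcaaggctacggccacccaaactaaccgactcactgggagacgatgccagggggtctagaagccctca
Tnfrsf17, chr16:11313559-11313858, plus strand: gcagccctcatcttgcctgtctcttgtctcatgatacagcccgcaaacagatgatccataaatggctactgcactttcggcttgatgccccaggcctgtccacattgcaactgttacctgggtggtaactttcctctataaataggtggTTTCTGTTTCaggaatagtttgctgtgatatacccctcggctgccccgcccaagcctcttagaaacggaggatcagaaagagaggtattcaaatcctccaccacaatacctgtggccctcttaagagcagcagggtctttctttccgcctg
Derl3, chr10:75893148-75893447, plus strand: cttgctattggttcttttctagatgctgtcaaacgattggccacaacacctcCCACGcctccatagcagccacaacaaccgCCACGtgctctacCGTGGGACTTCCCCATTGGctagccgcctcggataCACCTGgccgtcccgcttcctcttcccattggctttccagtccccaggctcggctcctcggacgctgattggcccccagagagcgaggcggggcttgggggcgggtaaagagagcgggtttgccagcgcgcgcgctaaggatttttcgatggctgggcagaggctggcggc

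The Derl3 window held the full ER stress response element on the minus strand, from base -156 to base -138 relative to the start. This 19-letter pattern, which ATF6 and XBP1 are known to bind, occurred in 39 of 32851 promoter windows, or 0.119%, and in 1 of the 9 member windows found. The E box lay in 5 member windows (Jchain, Cd79a, Prdm1, Derl3 and Xbp1) and in 20.2% of all windows. CCACG alone lay in 4 member windows and in 32.8% of all. The interferon-stimulated element lay in the Tnfrsf17 window and in 3.44% of all, the ETS-IRF composite in the Bach2 window and in 2.72% of all, and the Bach and AP-1 element in the Prdm1 window and in 7.81% of all. The octamer and the EBF palindrome matched 0 member windows, against 1.74% and 0.904% of all windows. No motif was common to the 4 promoters printed.

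The 2 regulators that drive secretion followed Igha less evenly. Irf4, an interferon regulatory factor that is needed for plasma cells, stood at 0.451, 4.18 and 1.69 CPM in Hmga2 replicates 1, 2 and 3, against 10.03, 0.420 and 6.69 CPM in vector replicates 1, 2 and 3. Hmga2 replicate 3 was nearer to the Igha-high libraries than the other libraries below the threshold were, with a gap of 2.48-fold. Prdm1, which encodes the repressor Blimp-1, stood at 1.24, 1.81 and 0.888 CPM in Hmga2 replicates 1, 2 and 3, against 2.98, 1.26 and 2.30 CPM in vector replicates 1, 2 and 3. Its gap of 1.44-fold was the narrowest of the 7, and between 30 and 93 counts lay behind each value.

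While Igha spanned 47.4-fold over the 6 libraries in CPM, the ratios of Jchain, Cd79a, Mzb1 and Tnfrsf17 to it within a library varied far less. Jchain was counted 194, 125 and 141 times per 1000 Igha counts in Hmga2 replicates 1, 2 and 3, against 94.1, 132 and 125 times in vector replicates 1, 2 and 3, a span of 2.06-fold. The corresponding spans were 2.43-fold for Cd79a, 2.51-fold for Mzb1 and 3.004-fold for Tnfrsf17, where 3 libraries held 5 counts or fewer. Against Jchain the ratio of Cd79a was tighter still, between 18.9 and 24.9 counts per 1000 Jchain counts, and that of Mzb1 lay between 20.2 and 36.3.

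The ratios of Derl3, Irf4, Prdm1, Xbp1 and Bach2 to Igha varied more. Derl3 was counted 2.07, 1.23 and 2.37 times per 1000 Igha counts in the libraries above the threshold (Hmga2 replicate 2 and vector replicates 1 and 3) and 7.43, 8.03 and 7.58 times in the others (Hmga2 replicates 1 and 3 and vector replicate 2). These 2 sets of ratios did not overlap. The same held for Jchain, Mzb1, Irf4, Prdm1, Xbp1 and Bach2, each with higher ratios in the libraries that had less Igha. The sets overlapped for Cd79a and Tnfrsf17. Igha both parted the libraries and stands under each ratio, so any gene that varied much less than Igha gives such a gap. The gap is therefore no result about these members. The span was 7.03-fold for Irf4, 20.1-fold for Prdm1, 46.9-fold for Xbp1 and 80.3-fold for Bach2. The levels of Xbp1 and Bach2 themselves moved by only 1.30-fold and 1.96-fold over all libraries.

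**Figure D2:**
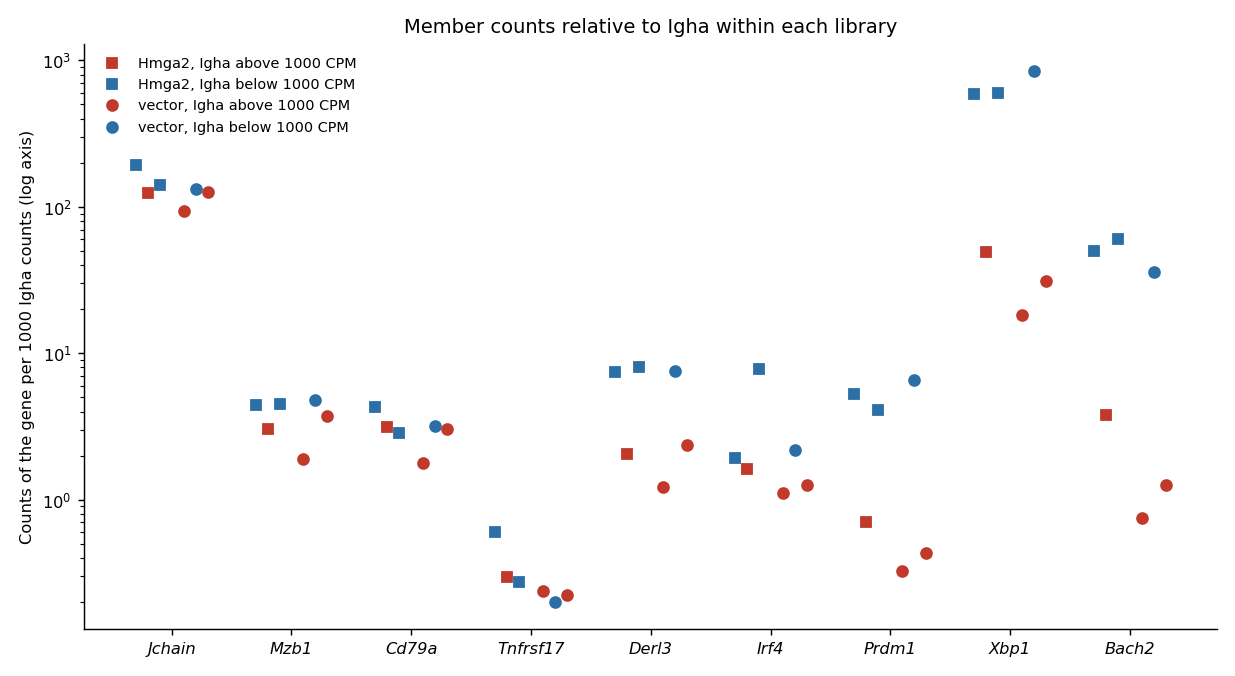
Counts of each member per 1000 Igha counts in the same library (log axis); squares are libraries labelled Hmga2, circles vector libraries, red Igha above 1000 CPM and blue below. Points lie close together for Jchain, Cd79a, Mzb1 and Tnfrsf17, within spans of 2.06-fold to 3.004-fold, and apart for Prdm1, Xbp1 and Bach2; Pax5 is left out for its counts of 0.

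Levels between members were compared as CPM per kilobase of exon, using the union of exons in GENCODE M21. In the libraries with Igha above 1000 CPM, Jchain came first at 127 to 340 CPM per kilobase, then Xbp1 at 38.9 to 50.8. Mzb1 at 6.44 to 16.1, Cd79a at 5.48 to 11.1 and Derl3 at 2.66 to 6.25 CPM per kilobase overlapped from neighbour to neighbour. Tnfrsf17 at 0.928 to 2.67, Irf4 at 0.852 to 2.05, Bach2 at 0.673 to 0.971 and Prdm1 at 0.324 to 0.534 followed, and among these neighbours only Bach2 and Prdm1 did not overlap. In the libraries below the threshold Xbp1 came first at 39.9 to 50.2, Jchain second at 10.04 to 18.1 and Bach2 at 0.691 to 1.32 CPM per kilobase overlapped Derl3 at 0.728 to 0.877 and Mzb1 at 0.754 to 0.859. The level of Xbp1 per kilobase was thus alike in both sets, and Jchain was above it only in the Igha-high set.

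Between the labels, 8 of the 9 tested members had a negative log2 fold change, labelled Hmga2 over vector, and 1 a positive one, beside 49.6% of all tested genes that were negative. None of the 9 passed the adjusted threshold of 0.05 in the quasi-likelihood test of edgeR, which called 0% of genes over the whole table, with 935 genes, or 5.59%, at an unadjusted p under 0.05. DESeq2 called 0.425% of genes and 2 of the 9 members, Xbp1 as lower and Bach2 as higher; 0.0538% of genes were called higher. The median over the 9 was -1.55, against 0.00 over all genes tested. For Jchain edgeR gave -1.98 on the log2 scale (SE 1.27, 95% interval -4.98 to 1.02, adjusted p = 0.855). Without Hmga2 replicate 2 its value was -3.78. When the summed Y-linked level of each library was added to the model, it was -0.44. The Y-linked level was lower in all Igha-high libraries than in any of the others, so this term cannot be told apart from the split by Igha.

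For the other members that followed Igha, the log2 fold changes lay between -1.97 for Mzb1 and -0.76 for Prdm1, with standard errors from 0.40 to 1.26 and adjusted p between 0.855 and 0.863 (edgeR). Their direction held with every library left out, but their size did not. Without Hmga2 replicate 2 the value was -3.67 for Mzb1, -3.76 for Cd79a, -3.47 for Tnfrsf17 and -2.45 for Irf4. Without vector replicate 1 it was -0.99 for Tnfrsf17, -0.83 for Irf4 and -0.49 for Prdm1. With the Y-linked level in the model it lay between -0.49 for Tnfrsf17 and -0.05 for Irf4. The 95% intervals of all 7 held 0, so neither a fall nor an equal level was shown.

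Xbp1 encodes the transcription factor that IRE1 activates by splicing in the unfolded protein response and that plasma cells need for secretion (chromosome 11, positions 5520659 to 5525893). It stood at 139, 126 and 129.6 CPM in Hmga2 replicates 1, 2 and 3, against 165, 163 and 165 CPM in vector replicates 1, 2 and 3, which is 132 ± 6.60 and 164 ± 1.01 CPM (SD, n = 3 each). All libraries labelled Hmga2 lay below all vector libraries, as did 5.18% of all tested genes. On the log2 scale it differed by -0.34 (SE 0.07, 95% interval -0.52 to -0.17), which did not pass in edgeR (adjusted p = 0.855) and passed in DESeq2 (adjusted p = 0.0187). Igha-high and Igha-low libraries overlapped, and vector replicate 2, with the least Igha, was level with the other vector libraries. Gene counts do not separate the spliced from the unspliced Xbp1 transcript.

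Bach2, a repressor that holds B cells short of plasma cell fate and is also active in lymphoid progenitors, was the 1 tested member that was higher under the Hmga2 label (chromosome 4, positions 32238804 to 32586108). Its levels were 11.8, 9.65 and 13.1 CPM in Hmga2 replicates 1, 2 and 3, against 6.81, 6.87 and 6.69 CPM in vector replicates 1, 2 and 3, which is 11.5 ± 1.74 and 6.79 ± 0.0912 CPM (SD, n = 3 each). All libraries labelled Hmga2 lay above all vector libraries, as did 6.53% of all tested genes. On the log2 scale it differed by 0.74 (SE 0.17, 95% interval 0.34 to 1.14), short of the threshold in edgeR (adjusted p = 0.855) and just past it in DESeq2 (adjusted p = 0.0462). It lay between 0.64 and 0.85 with single libraries left out and was 0.56 with the Y-linked level in the model. The antisense gene Bach2os overlaps Bach2 and held at most 4.36 counts in a library, against at least 166 for Bach2.

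**Figure D3:**
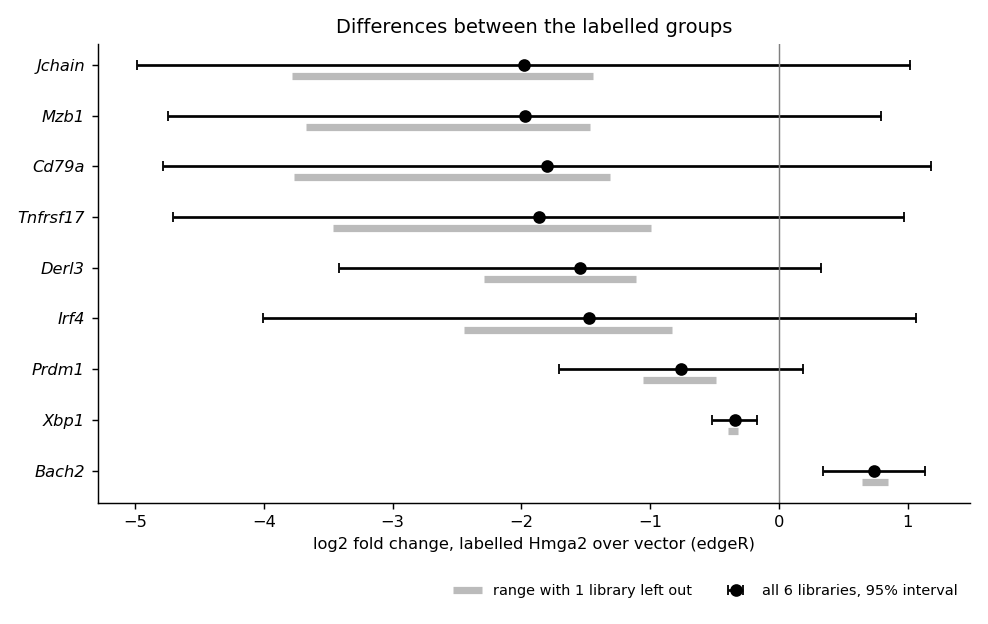
Log2 fold change, labelled Hmga2 over vector, of the 9 tested members (points, edgeR with all 6 libraries; whiskers, 95% interval) and the range of the value when 1 library is left out (grey bars). Intervals of the 7 members that followed Igha hold 0, while those of Xbp1 (-0.52 to -0.17) and Bach2 (0.34 to 1.14) do not, although neither passed adjustment over all genes in edgeR.

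Pax5, the factor that commits cells to the B lineage and is shut off in plasma cells (chromosome 4, positions 44524757 to 44710487), was counted 0, 4 and 1 times in Hmga2 replicates 1, 2 and 3 and 0 times in each vector library. It was the 1 member that did not pass the count filter. A count of 0 allows up to 0.0961, 0.115 and 0.121 CPM in vector replicates 1, 2 and 3. Vector replicates 1 and 3, with the highest Igha, thus had no detectable Pax5 at this depth.

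A minority of other B cell genes followed Igha, and the surface genes did so at a share near that of all genes. Of 19 genes for B cell surface and antigen receptor signalling, 14 were tested. Of these 1, Fcrla, which passed the count filter only through the Igha-high libraries, had all 3 of them above the rest. That is 7.14% beside 4.64% of all genes. By label, 9 were higher and 5 lower, with a median log2 fold change of 0.05 and 0 calls in edgeR and DESeq2. That median lay between -0.07 without Hmga2 replicate 3 and 0.14 without Hmga2 replicate 1; leaving out vector replicate 1 gave -0.02 and leaving out vector replicate 3 gave 0.11. The 4 with the highest levels were Syk, Cd74, Btk and Lyn, which progenitors and myeloid cells also express; Btk stood at 186, 176 and 171 CPM in Hmga2 replicates 1, 2 and 3, against 161, 177 and 178 CPM in vector replicates 1, 2 and 3. Ms4a1, which encodes the B cell antigen CD20, ranged from 1.22 to 1.72 CPM in the libraries labelled Hmga2 and from 0.846 to 1.54 CPM in the vector libraries. Its levels overlapped between the Igha-high and the other libraries, and Ms4a1, like Fcrla, was singled out after its values were seen.

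Of 15 B cell transcription factors, 13 were tested, 6 higher and 7 lower by label, with a median of -0.01 (-0.14 without Hmga2 replicate 3 to 0.10 without Hmga2 replicate 2) and 0 calls in either tool. Ikzf1, Tcf3, Spi1 and Bcl11a, the 4 with the highest levels, are shared with stem and progenitor cells. Tcf3, encoding E proteins, stood at 200, 213 and 228 CPM in Hmga2 replicates 1, 2 and 3, against 230, 232 and 211 CPM in vector replicates 1, 2 and 3. Pou2af1 and Ikzf3, or 15.4%, had all Igha-high libraries above the rest, beside 4.64% of all genes. The gap was 5.00-fold for Pou2af1 and only 1.11-fold for Ikzf3. More of the factors went the other way: 5 of the 13, or 38.5%, had the Igha-high libraries all below, beside 6.35% of all genes. Ebf1, which acts with Pax5 in early B cells, ranged from 0.0564 to 0.178 CPM in the libraries labelled Hmga2 and from 0.320 to 0.496 CPM in the vector libraries. These values rest on 2, 3 and 6 counts in Hmga2 replicates 1, 2 and 3 and 10, 13 and 11 in vector replicates 1, 2 and 3. Ebf1 was not tested and was named after its values were seen, and the labels did not overlap for 11.7% of all genes tested. Among 12 genes of B cell precursors 8 were tested, 5 higher and 3 lower with a median of 0.34 and 0 calls in either tool. That median was -0.18 without Hmga2 replicate 3 and 0.56 without Hmga2 replicate 2. Ly6d and Vpreb3, or 25% of the 8, had all Igha-high libraries above the rest, beside 4.64% of all genes. Flt3, or 12.5%, had them all below, beside 6.35% of all genes. Vpreb3, a partner of the precursor B cell receptor, was counted 2 to 42 times a library. It passed the count filter only through the Igha-high libraries and was named after its values were seen. Cd24a, Flt3, Dntt and Ly6d had the highest levels, and of these Ly6d, a surface antigen of lymphoid cells, followed Igha at 0.282, 1.58 and 0.385 CPM in Hmga2 replicates 1, 2 and 3, against 8.68, 0.305 and 6.77 CPM in vector replicates 1, 2 and 3.

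Plasma cell genes beyond the members followed Igha in part. Of 20 listed, 19 were tested (Tent5c is present under its older symbol Fam46c). Sdc1, Ccr10, Ly6k, Pim2 and Eaf2, or 26.3%, had all Igha-high libraries above the rest, beside 4.64% of all genes. The gap between the 2 sets of libraries was 7.75-fold for Ccr10 and 4.32-fold for Ly6k. Both of these genes passed the count filter only through the Igha-high libraries, so the filter largely set their place in this share. It was narrow for Eaf2 (1.28-fold), Sdc1 (1.23-fold) and Pim2 (1.02-fold). Sdc1, encoding the plasma cell antigen CD138, stood at 2.20, 4.77 and 3.88 CPM in Hmga2 replicates 1, 2 and 3, against 13.5, 2.48 and 9.03 CPM in vector replicates 1, 2 and 3. Ccr10, a chemokine receptor of IgA-secreting cells, was counted 3, 27 and 2 times in Hmga2 replicates 1, 2 and 3 and 50, 3 and 23 times in vector replicates 1, 2 and 3. The 5 were named after their values were seen. The 4 with the highest levels, Cd93, Itga4, Cxcr4 and Ly6c2, are expressed widely in marrow and did not rise with Igha. Itga4 was lower in all Igha-high libraries (140 to 188 CPM) than in any of the others (193 to 230 CPM). It was the 1 tested gene of this list, or 5.26%, with that pattern, beside 6.35% of all genes. By label 7 of the 19 were higher and 12 lower, with a median of -0.30 and 0 calls in either tool. The median was -0.02 without vector replicate 3 and -0.08 without Hmga2 replicate 1.

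As a list, genes of the ER beyond the members did not rise with Igha. Of 40 genes for ER import, folding and degradation, all tested, 1 (Prdx4), or 2.5%, had all Igha-high libraries above the rest, beside 4.64% of all genes. For 6 of the 40, or 15%, they lay all below, beside 6.35% of all genes. Calr, P4hb, Hspa5 and Hsp90b1 had the highest levels. Hspa5, the ER chaperone BiP, stood at 808, 506 and 668 CPM in Hmga2 replicates 1, 2 and 3, against 666, 911 and 663 CPM in vector replicates 1, 2 and 3. It was 1 of the 6. By label 4 were higher and 36 lower, with a median of -0.16, which was -0.07 without vector replicate 2, and 0 calls in edgeR and DESeq2. Granulocyte and monocyte markers were also mostly lower under the Hmga2 label, in 13 of 16 genes. Their median was -0.62, or -0.35 when vector replicate 2 was left out. For 7 of these 16 the labels did not overlap, beside 11.7% of all genes. In edgeR 0 were called, and in DESeq2 3 (Ms4a3, Ltf and Ngp), beside 0.425% of all genes in DESeq2. Their part in the values of the ER list was not tested. Of 12 sensors and factors of the unfolded protein response, 11 were tested and 0 had all Igha-high libraries above the rest. The median by label was -0.05, between -0.11 without vector replicate 3 and 0.00 without vector replicate 2. Atf4, the highest of them, had a log2 fold change of -0.39 (adjusted p = 0.855 in edgeR and adjusted p = 0.0033 in DESeq2). It was the 1 gene of this list that DESeq2 called, beside 0.425% of all genes. Next to it in level, Ppp1r15b, Mbtps1 and Atf6b ranged from -0.19 to 0.07.

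**Figure D4:**
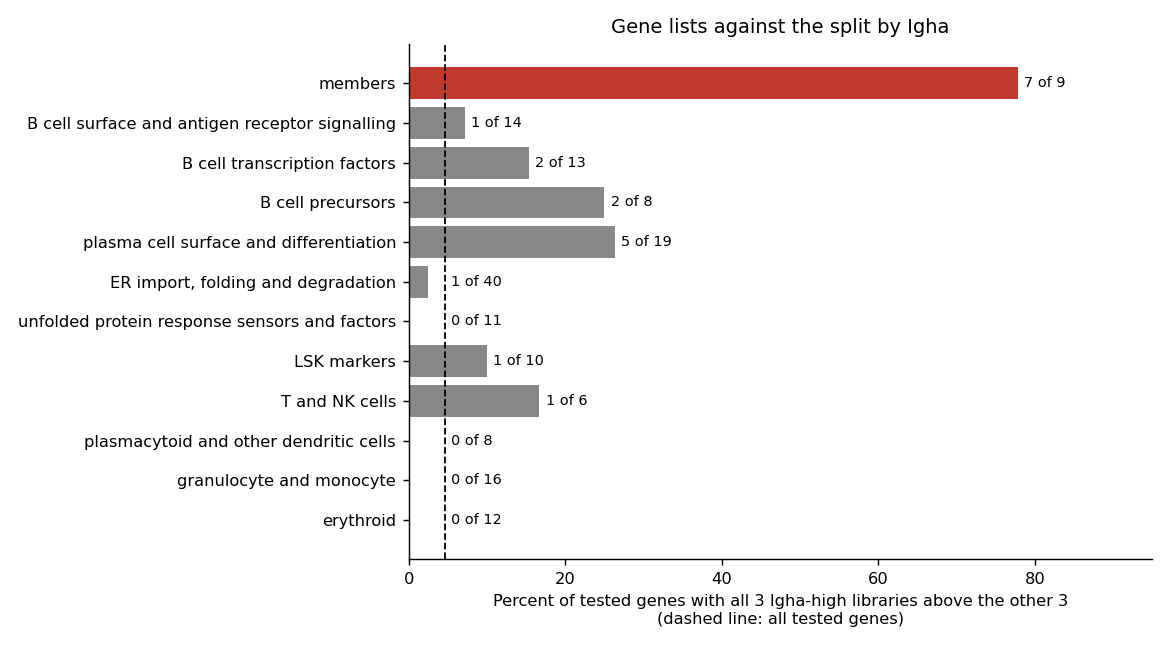
Percent of tested genes of each list for which all 3 libraries with Igha above 1000 CPM lay above the other 3, with the number of genes beside each bar; the dashed line is the 4.64% of all 16739 tested genes. The members (red, 7 of 9) were chosen with this split known. Among the other lists the plasma cell list comes next at 26.3%, and the ER list lies at 2.5%. Tnfrsf17 among the members, and Ccr10, Ly6k, Fcrla and Vpreb3 in other lists, passed the count filter only through the Igha-high libraries.

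By profile over the 6 libraries, Pou2af1 was the closest of 9964 candidate genes to both Jchain and Cd79a. Likeness was the root mean square difference of log2 CPM after each gene was centred on its own mean, over genes with a mean of at least 5 CPM that were neither members, immunoglobulin genes nor predicted genes. Pou2af1, the B cell coactivator of octamer-binding factors, stood at 1.07, 5.36 and 0.444 CPM in Hmga2 replicates 1, 2 and 3, against 22.5, 0.573 and 16.6 CPM in vector replicates 1, 2 and 3. It differed from Jchain by 0.31 and from Cd79a by 0.35 on the log2 scale. The next 7 for Jchain were Clec11a, Tpsb2, Cma1, St6gal1, Bcat1, Fbp1 and Sdc1, at 1.11 to 1.33 on the log2 scale, and the same 7 followed for Cd79a at 1.09 to 1.34. Among these, Tpsb2 and Cma1 encode mast cell proteases; Cma1 stood at 1.49, 30.8 and 6.78 CPM in Hmga2 replicates 1, 2 and 3, against 31.7, 4.54 and 18.3 CPM in vector replicates 1, 2 and 3. For Bach2 the closest were Tpm4, Nmral1, Aff3, Zfp286, Rgag4, Tnfsf10, Zfp953 and Ldlrad4, at 0.11 to 0.19 on the log2 scale. Tpm4, a tropomyosin gene, stood at 50.1, 39.1 and 58.6 CPM in Hmga2 replicates 1, 2 and 3, against 33.3, 34.1 and 31.6 CPM in vector replicates 1, 2 and 3.

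Some other properties of the libraries were also parted by Igha. Of 10 LSK marker genes, 1 (Ly6a), or 10%, had all Igha-high libraries above the rest, beside 4.64% of all genes. Another (Flt3), or 10%, had them all below, beside 6.35% of all genes. Ly6a, which encodes Sca-1, stood at 46.0, 52.3 and 56.9 CPM in the Igha-high libraries (Hmga2 replicate 2 and vector replicates 1 and 3) and at 32.1, 33.7 and 19.2 CPM in the others (Hmga2 replicates 1 and 3 and vector replicate 2). The summed level of 4 Y-linked genes was 5.33, 6.73 and 5.24 CPM in the Igha-high libraries and 191, 129 and 21.4 CPM in the others, in the same order. Each of the 4 was lower in all Igha-high libraries than in any of the others, beside 6.35% of all genes. By label the median log2 fold change of these 4 genes was 3.31, although the libraries of the labels overlapped. The X-linked gene Xist did not part by Igha. It stood at 645, 644 and 449 CPM in the Igha-high libraries and at 29.1, 168 and 547 CPM in the others, in the same order. The light chain gene Igkc stood at 1039, 2827 and 2703 CPM in the Igha-high libraries and between 63.1 and 125 CPM in the others. By summed CPM, marker lists of other cells showed no such split. The 16 T and NK cell genes came to 193 to 285 CPM in the Igha-high libraries and 215 to 226 CPM in the others. Cd3e and Cd3g were at or below 1 count. The 16 granulocyte and monocyte genes came to 3330.0 to 5148 and 4562 to 9535 CPM. Plasmacytoid and other dendritic cell genes summed to 274 to 285 and 273 to 382 CPM, with Siglech at 0.0764 to 0.296 CPM over all libraries. The 12 erythroid genes summed to 1149 to 1730 and 1186 to 2043 CPM. By this measure the plasma cell list did not part either, at 664 to 782 and 762 to 811 CPM. Counted by gene, 1 of 6 tested T and NK cell genes, or 16.7%, had all Igha-high libraries above the rest, beside 4.64% of all genes. In the dendritic cell, granulocyte and monocyte, and erythroid lists 0 genes did. The part of Sca-1, sex-linked expression or mast cell genes in the levels of the members was not tested.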

How the data were processed

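RNA from 6 sorted LSK samples was sequenced; group and replicate number came from each title. The authors deposited expected counts (estimated read counts, 1 value per symbol), as judged from the values: 67.3% to 70.1% of those above 0 were whole within 1e-06. The submitters' processing notes name Partek 3.0, Bowtie2 and mm10; no source used here gives the counter, annotation or strand setting. Estimated counts divide reads between similar genes, which can move values of families such as immunoglobulins.

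CPM values refer to library totals. For tests, expected counts were rounded and analysed with edgeR 4.0.16 in R 4.3.3 (filterByExpr, TMM, quasi-likelihood F test on group alone, Benjamini-Hochberg adjustment over 16739 genes); standard errors (SE) were taken from the F statistic. DESeq2 1.42.0 was the other tool, and both were tested on simulated data of this design, where DESeq2 made more false calls than edgeR. Replicates within a label were further apart than counting noise allows (chi-square over its degrees of freedom, 23.0 to 52.4). The labels do not say that replicates came from separate animals, so p-values measure the spread between these samples. Lengths and positions are from GENCODE M21 and promoter sequences from RefSeq (GRCm38.p6), where 9 of the 10 members matched.

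The members and lists were chosen with earlier results of these data known. Named genes were the members, up to 4 genes with the highest mean in each list, any gene past the threshold and the 8 closest profiles to Jchain, Bach2 and Cd79a; others were chosen after their values were seen, and not every gene that this rule takes is described.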

Additional observations from a re-analysis of the deposited data

How the results depend on the processing

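The quasi-likelihood test called 0 genes and 0 members with the replicate block and with immunoglobulin genes left out. It also called 0 of both with relative log expression factors of edgeR in place of TMM and with each library left out (lowest and highest count 0). It called 1 gene, Mt1, without the filter on low counts and 1 gene, Ighv1-78, with a term for the summed Y-linked level; DESeq2 called 71 genes and 2 members. No member changed direction under the 12 alternatives. The median over the tested members, -1.55, was -1.51 with the replicate block and -0.39 with the Y-linked term. The Y-linked level itself parted the libraries as Igha did. With single libraries left out the median lay between -2.45 and -0.99. Same-numbered libraries of the 2 labels did not deviate together (correlations of -0.19, -0.51 and -0.28), and the block changed no call. The labels do not say whether the number pairs libraries, and so few correlations cannot settle it. The same 3 libraries lay above Igha thresholds of 500, 1000 and 2000 CPM and with TMM-scaled sizes. The 8 closest profiles to each of Jchain, Bach2 and Cd79a were the same genes with a prior count of 2. Depth limits what can be said of Pax5, with at most 4 counts a library, and of Tnfrsf17 in the 3 libraries that held 5 counts or fewer.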
